A study of Sus scrofa with 6 samples.

Results

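The genes described here encode the enzymes and regulators that carry signals inside the cell: MAP kinases and the kinases above them, protein phosphatases, heterotrimeric G proteins with their RGS partners, and the enzymes that act on or answer to cyclic nucleotides, calcium and phosphoinositides. They were chosen by name, as every gene whose symbol belongs to one of these families and which stands as the only symbol of a probe set. Earlier results of these data were known when this choice was made. Each gene was read from its brightest probe set, the one with the highest mean log2 signal over all arrays. This gave 144 genes on 227 probe sets, out of 6765 genes with a probe set of exactly 1 symbol and 23999 probe sets in all. The signals come from the cerebral cortex of pig embryos (Sus scrofa), 3 at embryonic day 60 (E60), before the cortex folds, and 3 at embryonic day 80 (E80), after the primary folds have appeared. One Affymetrix Pig Genome Array was used for each embryo, arrays 1, 2 and 3 at E60 and arrays 4, 5 and 6 at E80, and no treatment or genotype differs between the days. The embryos are described as litter mates without naming which of them share a litter, and embryos of different days cannot share one, so litter and day cannot be told apart. The labels name neither breed nor sex. The values are MAS5 signals, 1 number per probe set and array on a linear scale, and differences are given on the log2 scale as E80 minus E60. The words rose and fell are kept for genes whose limma p, after Benjamini-Hochberg adjustment across the 23999 probe sets, was under 0.05. SE is the standard error of a log2 value, from the spread as limma moderates it.

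In these pathways a receptor on the cell surface activates a heterotrimeric G protein or a cascade of kinases. The alpha subunit of the G protein, once it carries GTP, turns adenylyl cyclase or phospholipase C up or down, the beta and gamma subunits signal as a pair, and RGS proteins end the signal by speeding up the hydrolysis of GTP. Cyclic AMP activates protein kinase A (PKA), which A-kinase anchoring proteins hold in place and phosphodiesterases switch off by breaking the messenger down, while calcium acts through calmodulin on its kinases and on the phosphatase calcineurin. Kinases of the MAP, PKA and PKC families are opposed by the phosphatases PP1 and PP2A, whose regulatory subunits decide where they act. MAP kinases are also opposed by dual-specificity and tyrosine phosphatases. In the developing cortex these enzymes are known from the proliferation of progenitors, the migration of neurons and the first synapses.

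Of the 144 genes, 6 rose from E60 to E80 and none fell. These were the G protein subunits GNG3 and GNAZ, the G protein regulator RGS4, the atypical kinase PRKCZ and the phosphatase regulators PPP1R1A and PPP1R21. All 6 calls were lost when array 1, 2 or 4 was left out, though the direction was kept. The share that rose was 4.17%, and among all 6765 named genes, read the same way, 1.49% rose, 1.05% fell and 2.54% were called in either direction. Of all 23999 probe sets 0.933% rose, 1.01% fell and 1.95% were called in all. At an unadjusted p under 0.05 there were 37 of the 144 genes (25.7%), 24 higher and 13 lower at E80, against 20.7% of all named genes. Of the called probe sets 48.0% were higher at E80, a share that became 74.2% when each array was centred on its median. The arrays read tissue with many cell types, and fewer cells of a type and less RNA per cell cannot be told apart. For 46 of the 144 genes the arrays of one day lay above or below all arrays of the other, 25 (17.4%) higher and 21 (14.6%) lower at E80. Over all named genes this share was 27.5%, with 12.8% higher and 14.7% lower. The median log2 difference was 0.01 over the 144 genes and 0.00 over all named genes, and the median size of the difference, without its sign, was 0.23 and 0.22. The signalling genes as a whole therefore lay close to the other genes of the array, and 116 of the 144 differed by less than 0.5 on the log2 scale.

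**Figure D1:**
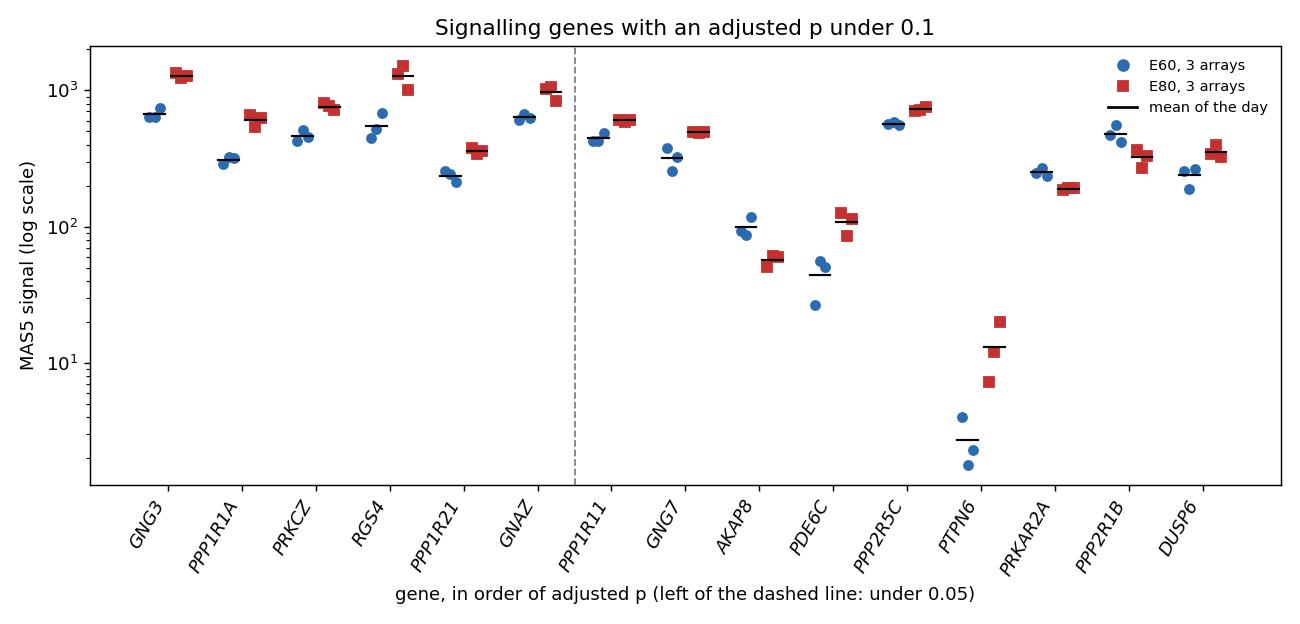
MAS5 signal (vertical axis, log scale) of the 15 signalling genes with an adjusted p under 0.1, with single arrays as points (E60 as blue circles, E80 as red squares, 3 each) and the mean of each day as a bar. The 6 genes left of the dashed line rose, and in each of the 15 genes the days do not overlap.

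Among the heterotrimeric G proteins, GNG3, a gamma subunit found mainly in neurons, had signals of 635, 637 and 746 at E60 and 1336, 1225 and 1273 at E80. Every array of E80 was far above those of E60, and the gene rose 1.90-fold (log2 change 0.93, SE 0.09, limma adjusted p = 0.0159). GNAZ, the alpha subunit of Gz, which inhibits adenylyl cyclase and is abundant in brain, had signals of 604, 674 and 629.9 at E60 and 1026, 1065 and 835 at E80. The days were apart, with array 6 the lowest of E80, and the log2 change was 0.61 (SE 0.11, limma adjusted p = 0.0389). RGS4, which speeds up GTP hydrolysis on the Gi and Gq families and is abundant in cortical neurons, had signals of 450.1, 521 and 683 at E60 and 1328, 1512 and 1004 at E80. It rose 2.33-fold, the largest log2 change of the 6 at 1.22 and also the widest scatter within a day, with a standard error of 0.19 (adjusted p = 0.0248 from limma).

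The other G protein subunits did not follow GNG3 and GNAZ as a family. Of 7 gamma subunits 1 rose and none fell, and 5 of the 7 were lower at E80 in mean log2 signal (4 of the 7 after median centring), with a median log2 difference of -0.16. GNG7, a gamma subunit best known from the striatum, had signals of 379, 258 and 323 at E60 and 492, 488 and 493 at E80. Its E80 arrays lay within a narrow band above all of E60, and the log2 difference of 0.63 did not pass (adjusted p = 0.0626 from limma). GNG12, a gamma subunit also made outside neurons, lay lower at E80, from 34.9 ± 3.54 (SD, n = 3) at E60 to 20.1 ± 4.13 (SD, n = 3) at E80, with no overlap, a log2 difference of -0.81 and an adjusted p of 0.155. GNG5 likewise lay lower on every array of E80 by a small margin, with a log2 difference of -0.20 (adjusted p = 0.288). All 4 alpha subunits were higher at E80 in mean log2 signal, but those of GNAI1 (0.19, adjusted p = 0.312) and GNAS (0.09, adjusted p = 0.873) overlapped between the days, and after quantile normalization only 3 of the 4 were higher. Of the 3 beta subunits GNB2 was higher on each array of E80, with a log2 difference of 0.24 and an adjusted p of 0.163. The days overlapped for GNB5 and for GNB1L, a WD-repeat protein that resembles beta subunits in sequence. A dim further probe set of GNB1L was lower on every array of E80, by a log2 difference of -0.72 (limma adjusted p = 0.258).

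Of 8 RGS proteins RGS4 was the only one to pass the test. RGS14, which also carries a domain that binds Gi, had a log2 difference of 0.50 (adjusted p = 0.246), with array 5 of E80 at 82.2 below the highest array of E60 at 85.8. RGS2, a regulator of Gq, had signals of 356, 239.6 and 237 at E60 and 201, 191 and 237 at E80 on its brightest probe set. The lowest array of E60 and the highest of E80 nearly touched, at 237.1 and 236.6, for a log2 difference of -0.38 (adjusted p = 0.297). The other probe sets of RGS2 are dim and had log2 differences of 0.07 and 0.77, so that the sign of this gene depends on the probe set.

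**Figure D2:**
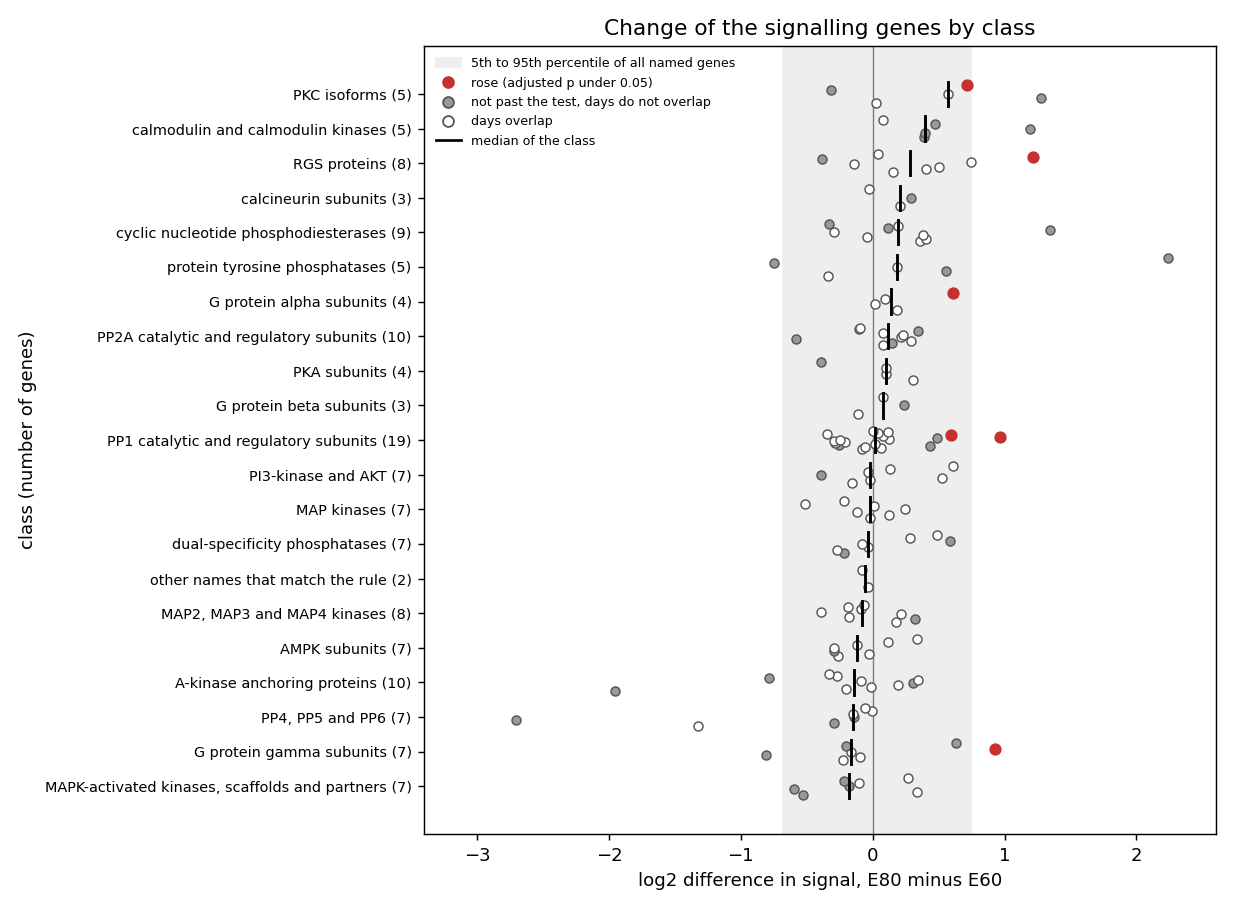
Log2 difference in signal, E80 minus E60 (horizontal axis), for each of the 144 signalling genes, by class (vertical axis, number of genes in brackets). Red points rose, grey points did not pass the test but had days without overlap, white points overlapped, and black bars are class medians. The grey band spans the 5th to 95th percentile of all named genes, -0.68 to 0.75, and most classes lie within it.

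Among the subunits and regulators of PP1, a serine and threonine phosphatase, 2 of 19 rose on their brightest probe sets, against 1.49% of all named genes. A further probe set of PPP1R12A fell, as given below. PPP1R1A, known as inhibitor-1, blocks PP1 after PKA has phosphorylated it. Its signals were 286, 323 and 321 at E60 and 657, 536 and 625 at E80, so that every array of E80 was well above E60, and it rose 1.95-fold (log2 change 0.97, SE 0.11, limma adjusted p = 0.0159). PPP1R21, a PP1 partner on early endosomes, had signals of 257, 243 and 212 at E60 and 376, 339 and 359 at E80. The days were clearly apart at a smaller change of 0.60 (SE 0.11, limma adjusted p = 0.0389). PPP1R11, known as inhibitor-3 of PP1, had a log2 difference of 0.43, with E80 above E60 on every array, and just missed the threshold (adjusted p = 0.0564 from limma). The 19 genes of this class ran from -0.35 to 0.97, and their median of 0.02 shows no common direction.

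PP2A, the other main phosphatase of the cell, is built from a scaffold, a catalytic and a regulatory subunit, and none of its 10 measured genes passed. PPP2R5C, a regulatory subunit of the B56 family, had a log2 difference of 0.35 (adjusted p = 0.0739), higher on each array of E80, and its other probe sets had 0.44 and 0.02 with overlap. The scaffold PPP2R1B had signals of 469.7, 559.8 and 418 at E60 and 367, 269 and 332 at E80. Every array of E80 was the lower, and the log2 difference was -0.58 (adjusted p = 0.0929 from limma), close to that of its other probe set at -0.55. PPP2R2B, a regulatory subunit found mainly in neurons, had a log2 difference of 0.23 with overlap (adjusted p = 0.259). Among the subunits of the related phosphatases PP4 and PP6, none passed, and all 7 were lower at E80 in mean log2 signal, a direction that held for 6 of the 7 after quantile normalization and for 5 of the 7 after the array medians were set to a common value. PPP4R2, a regulatory subunit of PP4, had the clearest of the small differences, -0.29 without overlap (adjusted p = 0.190). PPP4R3A had the largest difference of all 144 genes by size, at -2.70, but its signals were 13.8, 15.4 and 8.96 at E60 and 0.990, 7.83 and 0.882 at E80, all dim, with a standard error of 0.85 and an adjusted p of 0.145. PPP4R1L, likewise dim at signals of 1.53 to 15.0, overlapped.

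Calcineurin, the phosphatase that calmodulin turns on, is represented by its 3 catalytic subunits, and none passed. PPP3CB had signals of 1752, 1958 and 2025 at E60 and 2454, 2403 and 2142 at E80. All E80 arrays were above E60, by a log2 difference of 0.29 (adjusted p = 0.158). PPP3CA had 3 probe sets that gave nearly 1 value, 0.19 to 0.21, each with overlap between the days, and PPP3CC, at -0.03, changed sign after quantile normalization or median centring.

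Of 5 genes of calmodulin and its kinases none passed. On its brightest probe set each was higher at E80 in mean log2 signal under every scaling tried. There 4 had days without overlap, against 12.8% of all named genes higher without overlap, and 1 of the 4 is CALM3, whose probe sets disagreed. Calmodulin is the calcium sensor that several genes encode as the same protein. CALM2 had signals of 1961, 1878 and 1649 at E60 and 2527, 2598 and 2093 at E80. Array 6 was the lowest of E80 and still above E60, for a log2 difference of 0.39 (SE 0.11, limma adjusted p = 0.116). CAMK1, a kinase activated by calmodulin and known from dendrite and axon growth, had signals of 40.3, 70.4 and 101 at E60 and 187, 102 and 180.4 at E80. It nearly touched between the days, at 101 on array 3 and 102 on array 5, with a log2 difference of 1.19 (adjusted p = 0.130). CAMK1D was higher on every array of E80, by a log2 difference of 0.48 (adjusted p = 0.393), with 1 array of E60 at 66.6 and the other two at 135 and 136.

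The probe sets of CALM3 disagreed in direction. Its brightest probe set had signals of 2152, 1908 and 2627 at E60 and 2951, 2920.3 and 2867 at E80, higher on every array of E80, with a log2 difference of 0.40 (adjusted p = 0.129 from limma). A further probe set, at 610 to 782 at E60 and 849 to 1036 at E80, also lay higher at E80, by 0.38 on the log2 scale (adjusted p = 0.157). The remaining 4 were all lower at E80 on every array, with log2 differences of -0.48, -0.50, -0.58 and -0.50. One of these fell, from 650.2, 639 and 674 at E60 to 464, 481 and 447 at E80 (log2 change -0.50, SE 0.08, limma adjusted p = 0.0298), and the other three had adjusted p of 0.0537 to 0.0682. All 6 probe sets thus kept the days apart, 2 in one direction and 4 in the other, under 1 gene symbol, and the mean over the 6 gave a log2 difference of -0.21 (adjusted p = 0.248). Whether they read different transcripts, different ends of one transcript or a related gene was not tested, since no probe sequences were used here.

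**Figure D3:**
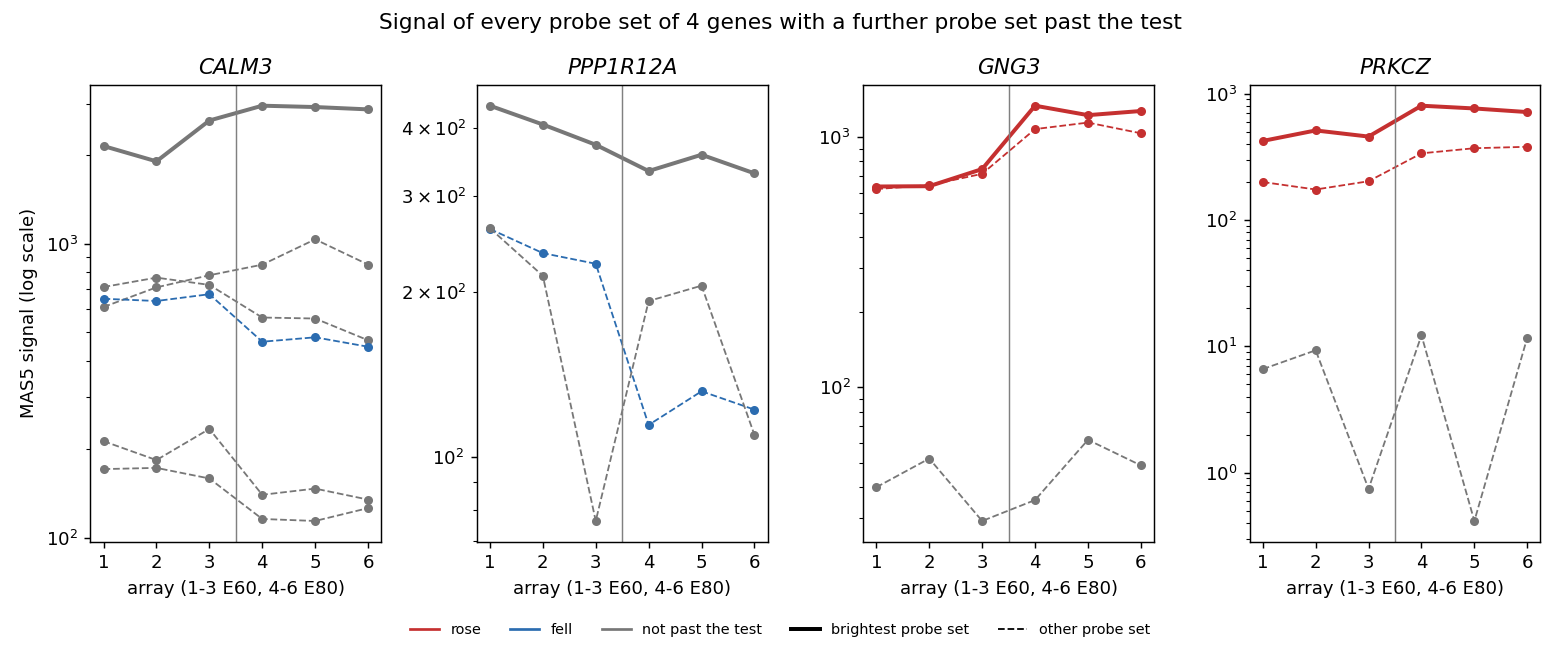
MAS5 signal (vertical axis, log scale) on arrays 1 to 6 (horizontal axis, grey line between E60 and E80) for each probe set of the 4 genes in which a probe set other than the brightest passed the test. Thick lines are the brightest probe sets, dashed lines the others, red rose, blue fell and grey did not pass. For GNG3 and PRKCZ the bright probe sets rose together, whereas those of CALM3 part into 2 that are higher and 4 that are lower at E80.

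Across the gene set, 85 genes had 1 probe set and 59 had several, with 83 probe sets beyond the brightest. Of these 83, 53 had the sign of the brightest, and in 36 of the 59 genes all probe sets had 1 sign. Further probe sets passed the test in 4 genes. GNG3 rose on another probe set by 0.72 (adjusted p = 0.0159) and PRKCZ by 0.92 (adjusted p = 0.0159), both in limma, while the dim remaining probe set of each had overlapping days. PPP1R12A, the targeting subunit that brings PP1 to myosin, fell on a probe set that was not its brightest. The signals there were 261, 236 and 225 at E60 and 114, 132 and 122 at E80, a log2 change of -0.97 (SE 0.12, limma adjusted p = 0.0159), while the brightest had a log2 difference of -0.25 (adjusted p = 0.231), also without overlap, and a further probe set one of 0.01. CALM3 is the remaining gene of the 4. AKT1, a kinase that phosphoinositides activate, had log2 differences of -0.16 (adjusted p = 0.712) and 0.98 on its probe sets, neither past the test.

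Among 5 isoforms of protein kinase C, the kinases that calcium and diacylglycerol activate in their classical forms, PRKCZ rose. PRKCZ encodes the atypical zeta isoform, and neurons also make a shorter, constantly active kinase from this gene. Its signals were 422, 511 and 457 at E60 and 802, 763 and 714 at E80, without overlap, and it rose 1.64-fold (log2 change 0.72, SE 0.10, limma adjusted p = 0.0196). PRKCB, a classical isoform abundant in neurons, had a larger but more scattered difference, with signals of 172, 108 and 203 at E60 and 540.1, 222 and 449.6 at E80. Array 5 stood near the highest array of E60, and the log2 difference of 1.28 had a standard error of 0.35 and an adjusted p of 0.104. Its other probe sets had log2 differences of 1.11 and 0.54, with overlap. PRKCH had a log2 difference of -0.32, lower on every array of E80 (adjusted p = 0.371).

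The subunits of PKA, the kinase that cyclic AMP activates, and the proteins that anchor it held no gene past the test. PRKAR2A, the regulatory subunit of type II PKA that binds anchoring proteins, had signals of 248, 268 and 236 at E60 and 186, 193 and 193 at E80. Each array of E80 was lower, in a narrow band, for a log2 difference of -0.39 (adjusted p = 0.0924 from limma). The catalytic subunit PRKACB and the regulatory subunit PRKAR1A both had a log2 difference of 0.10 with overlap and turned negative after quantile normalization. PRKACA, the other catalytic subunit, had signals of 195, 179 and 415 at E60 and 284, 225 and 429 at E80, and its scatter within each day was wider than the difference between them (0.30, standard error 0.34). Of the 10 anchoring proteins, AKAP8, which holds PKA in the nucleus, had signals of 93.8, 86.9 and 118 at E60 and 51.1, 60.9 and 60.2 at E80, lower on every array of E80. Its log2 difference was -0.79 (adjusted p = 0.0654), while its dim other probe set, at 7.06 to 18.4, had one of 0.01. AKAP2, another anchoring protein, was higher by 0.31 (adjusted p = 0.169), without overlap. AKAP1, which anchors PKA at mitochondria, had signals of 9.23, 11.8 and 9.32 at E60 and 9.06, 1.52 and 1.27 at E80 and a log2 difference of -1.95 with a standard error of 0.76, and array 4 stood just under the lowest array of E60.

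Of 9 phosphodiesterase genes, which end cyclic nucleotide signals, none passed. PDE6C, the cone phosphodiesterase by the annotation used here, is described because its probe set is among those the study listed from the same arrays without a gene name. Its signals were 26.6, 55.8 and 51.0 at E60 and 127, 85.5 and 115 at E80. The days did not overlap, and the log2 difference was 1.35 (SE 0.30, limma adjusted p = 0.0657). PDE4A, which breaks down cyclic AMP, had log2 differences from -1.24 to 0.92 on its 4 probe sets, none past the test. PDE9A, specific for cyclic GMP, was lower on every array of E80 by a log2 difference of -0.33 (adjusted p = 0.399). No adenylyl cyclase was among the genes analysed here, so the enzymes that make cyclic AMP could not be set beside those that break it down. Of the 7 subunits of AMPK, the kinase that senses low energy, PRKAB1 was lower on every array of E80 (-0.30, adjusted p = 0.249). The others overlapped on their brightest probe sets, including PRKAB2 (-0.30, adjusted p = 0.486) and PRKAA1 (-0.26, adjusted p = 0.532). A further probe set of PRKAG1 was lower on every array of E80, with a log2 difference of -0.34 (limma adjusted p = 0.229). The names ADCYAP1, a neuropeptide that acts on adenylyl cyclase through its receptor, and PRKCSH, a glucosidase subunit, match the rule without being enzymes of this signalling, and both overlapped.

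In the MAP kinase cascade, no gene passed the test. On their brightest probe sets the days overlapped for all 7 MAP kinases, whose log2 differences ran from -0.51 to 0.25 with a median of -0.02. A further probe set of MAPK6 was lower on every array of E80, with a log2 difference of -0.26 (limma adjusted p = 0.230). MAPK3, which is ERK1, had signals of 183, 172 and 284 at E60 and 188, 239 and 332 at E80. Its within-day SD of 0.40 on the log2 scale was wider than the difference of 0.25 (SE 0.25, limma adjusted p = 0.654). The stress kinase MAPK8, or JNK1, had signals of 73.0, 86.4 and 68.5 at E60 and 39.6, 79.7 and 47.1 at E80. Array 5 stood within the range of E60, and the log2 difference was -0.51 (adjusted p = 0.366). MAPK9, or JNK2, differed by -0.22 on the log2 scale (adjusted p = 0.368) and MAPK14, the p38 alpha kinase, by -0.12 (SE 0.12). Among 8 kinases above them, MAP2K4, which activates JNK, was higher on each array of E80, with signals of 466, 469.9 and 455 at E60 and 611, 540.2 and 589 at E80. The difference was small, 0.32 on the log2 scale (adjusted p = 0.105). MAP3K3 had log2 differences of -0.37 to -0.55 on its 3 probe sets (adjusted p of 0.284 to 0.360), and MAP3K7, known as TAK1, one of -0.19 (adjusted p = 0.416).

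Of the 7 genes of MAPK-activated kinases, scaffolds and partners, 4 were lower at E80 without overlap and none higher, and none passed. Over all named genes 14.7% were lower without overlap. MAPK8IP3, or JIP3, a scaffold that links JNK to kinesin in axons, had signals of 73.3, 82.1 and 81.2 at E60 and 59.0, 36.7 and 65.8 at E80. Array 5 was the lowest, and the log2 difference was -0.59 (adjusted p = 0.238), with -0.39 on its other probe set. MAPK1IP1L differed by -0.53 on the log2 scale (adjusted p = 0.121) and MAPKAPK5, a kinase that MAP kinases activate, by -0.22 (adjusted p = 0.375), with -0.64 on its other probe set (adjusted p = 0.0976). MAPK8IP1, or JIP1, had signals of 406, 447 and 946 at E60 and 568, 633 and 963 at E80, and here arrays 3 and 6 were high within their days, as they were for PRKACA and MAPK3. This pattern was found in 22 of the 144 genes (15.3%) and in 14.2% of all named genes.

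The phosphatases that switch MAP kinases off gave no common direction. DUSP6, which dephosphorylates ERK and is itself induced by ERK signalling, had signals of 258, 188 and 267 at E60 and 341, 397 and 324 at E80. All arrays of E80 were above E60, with a log2 difference of 0.59 (SE 0.15, limma adjusted p = 0.0988) and 0.64 on its dim other probe set. DUSP1, an immediate early phosphatase of p38 and JNK, was lower on every array of E80, with a log2 difference of -0.21 (adjusted p = 0.292), and DUSP11, which acts on RNA, had a log2 difference of -0.27 with overlap. Of 5 tyrosine phosphatases none passed. PTPN18 was higher by 0.56 (adjusted p = 0.103) and PTPN4 lower by a log2 difference of -0.75 (adjusted p = 0.105), both without overlap, though the dim other probe sets of PTPN4 had differences of 0.09 and 0.32. PTPN6, or SHP-1, a phosphatase of blood cells and microglia, had the highest log2 difference of the 144 genes, 2.24, on signals of 4.01, 1.8 and 2.32 at E60 and 7.26, 12 and 20.1 at E80 (standard error 0.55, adjusted p = 0.0848). Its other probe set, equally dim, had a log2 difference of -0.18. The 6 measured genes of microglia and blood had summed signals of 1167 to 1400 at E60 and 1191 to 1530 at E80, a sum that includes the haemoglobin gene HBB, which overlapped between the days (log2 difference -0.09). Of the other 5, AIF1, C1QA, C1QC and TYROBP were highest on array 6, at 176, 140.5, 227 and 60.7, where PTPN6 also had its highest signal. PTPRC, the common leukocyte antigen, did not share this, with signals of 9.83, 4.47 and 13.4 at E60 and 1.62, 6.63 and 7.97 at E80, highest on array 3 and with overlap (log2 difference -0.93). Without array 6 the log2 difference of PTPN6 was 1.87, and the part of these cells in the result was not tested.

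Among 7 genes of PI3-kinase and AKT, none passed. PIK3C3, the lipid kinase of autophagy and endosomes, was lower on every array of E80, from 138 ± 11.7 (SD, n = 3) at E60 to 106 ± 13.9 (SD, n = 3) at E80, a log2 difference of -0.39 (adjusted p = 0.209). PIK3AP1 (0.53, adjusted p = 0.453) and PIK3R5 (0.61, adjusted p = 0.605), both known from immune cells, overlapped.

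A rule of size, at least 3-fold with no overlap between the days, was met by PTPN6, PPP4R3A and AKAP1 only. This is 3 of 144 genes (2.08%), against 0.724% of all named genes. The mean signals of these 3 genes in their higher day were 13.1, 12.7 and 10.1, below the median of 61.6 over all probe sets, and none of them is among the 6 genes that rose. A mean signal above that median in the higher day was found in 115 of the 144 genes.

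**Figure D4:**
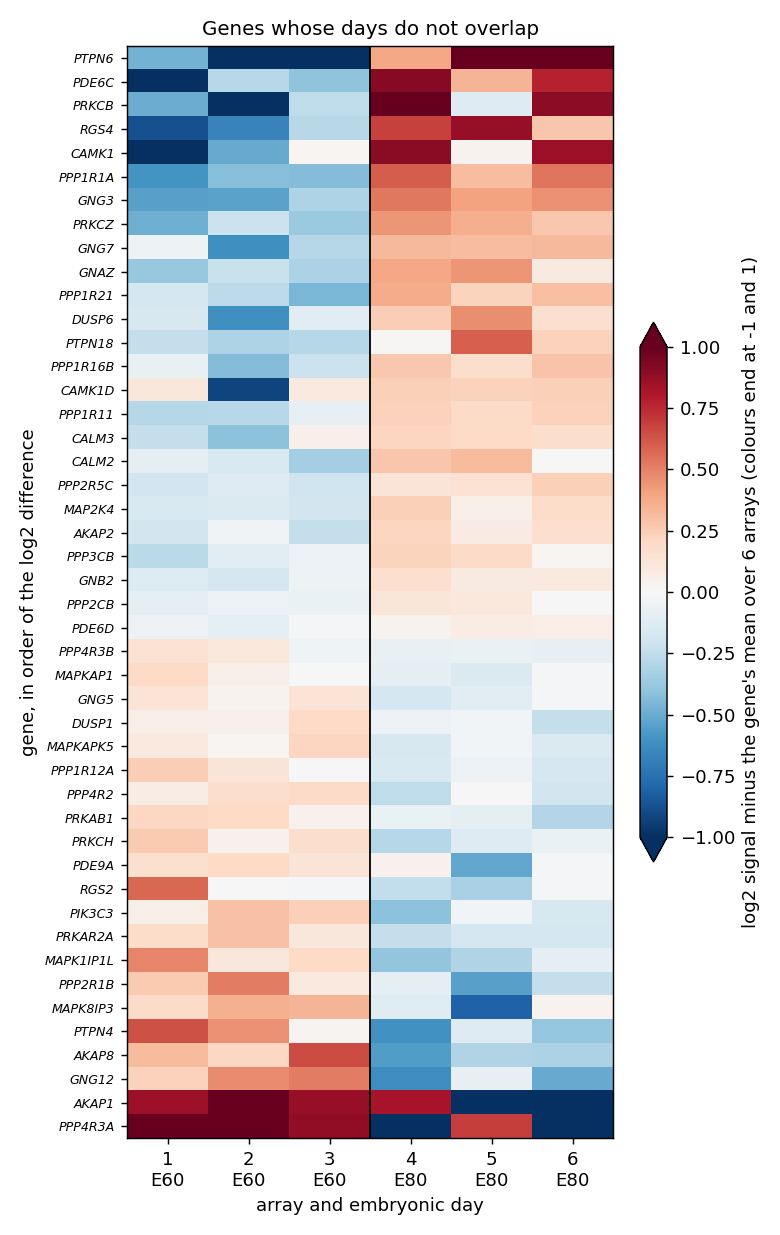
Log2 signal on each array minus the gene's mean over the 6 arrays (colour, ending at -1 and 1) for the 46 signalling genes whose days do not overlap, in order of their log2 difference from the highest (PTPN6) to the lowest (PPP4R3A). The 25 genes at the top are higher and the 21 at the bottom lower at E80. The deepest colours include the dim genes PTPN6, AKAP1 and PPP4R3A, and array 5 departs from arrays 4 and 6 for PRKCB, CAMK1 and PPP4R3A.

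Genes of the same pathways outside these families were followed in 5 lists. Of 18 listed genes of CaMKII, calmodulin binding and kinase inhibitors, 11 were measured. Of these 11, 2 rose and none fell, where 1.49% of all named genes rose and 1.05% fell. CAMK2B, a subunit of CaMKII, the calmodulin kinase of synapses, had signals of 807, 846 and 1042 at E60 and 1489.9, 1292 and 1330.4 at E80, a log2 change of 0.62 (adjusted p = 0.0424 from limma). PKIG, an inhibitor of PKA, had signals of 264, 281 and 275 at E60 and 399.6, 421 and 437 at E80, a log2 change of 0.62 (adjusted p = 0.0218 from limma). PKIG was read from the brighter of 2 probe sets, and the mean of its probe sets did not pass. Every array of E80 was above those of E60 for both genes, and neither passed without array 1, 2, 4 or 6. CAMK2B also missed the threshold without array 5 and after quantile normalization (adjusted p = 0.0534). None passed among 5 measured genes of RAS, RAF and their adaptors, 10 immediate early and CREB genes, 8 of phospholipase C and its messengers, and 7 of PI3-kinase antagonists and mTOR. Closest to the test in these lists were FOS, an immediate early gene (0.80, adjusted p = 0.101), INPP5A, which breaks down the calcium messenger IP3 (0.42, adjusted p = 0.131), TSC1 (-0.85, adjusted p = 0.185), an inhibitor of mTOR signalling, and the adaptor SHC1 (-0.43, adjusted p = 0.350). The next of each of these lists were the stress response factor ATF4 (0.30, adjusted p = 0.206), the phospholipase PLCG1 (-0.22, adjusted p = 0.297), TSC2, the partner of TSC1 (-0.31, adjusted p = 0.229), and the adaptor GRB2 (0.17, adjusted p = 0.368). The median log2 differences of the 5 lists ran from -0.11 to 0.15.

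Markers of several cell types also differed between the days. Over all named genes 1.49% rose and 1.05% fell. Of 7 listed markers of intermediate progenitors and dividing cells 2 were measured, the cell division genes CCNB1 and TOP2A, and both fell. Their summed signals were 409 to 452 at E60 and 152 to 274 at E80. No listed gene particular to intermediate progenitors was read here. Of 7 astrocyte markers 3 rose, with sums of 2635 to 2923 at E60 and 3732 to 5064 at E80. Of 8 markers of excitatory neurons 1 was measured and overlapped (187 to 232 at E60, 212 to 289 at E80), and of 5 interneuron markers 1 rose (2770 to 3328 and 2972 to 3776). Of 5 radial glia markers 1 rose, and the sums were 5162 to 5273 at E60 and 4434 to 4990 at E80. None passed among the markers of oligodendrocytes (84.1 to 118 at E60, 150.4 to 522 at E80), striatum (1515 to 2517 and 796 to 1612), fibroblasts and meninges (819 to 1291 and 332 to 847), or endothelial and mural cells (1767 to 1800 and 1471 to 1700). A sum follows the brightest genes of its list. MBP alone had 162, 68.3 and 466 at E80. Of 6 oligodendrocyte markers, MBP and the dim OPALIN were higher without overlap. The others overlapped, with log2 differences from -0.22 (CNP) to 0.96 (MOBP). MEIS2 alone had 1563, 1135 and 1076 at E60. The other striatum markers overlapped, with log2 differences from -1.35 (RXRG) to 0.05 (RARB). The choroid plexus list summed to 88.6 to 174 at E60, to 109 and 196 on arrays 4 and 5, and to 5463 on array 6. No marker was at a signal of 0. Their part in the 6 rises was not tested. Without array 6 the log2 changes of the 6 genes were 0.59 to 1.38, and GNG3, PPP1R1A, PRKCZ, RGS4 and GNAZ passed, while PPP1R21 had an adjusted p of 0.0909.

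**Figure D5:**
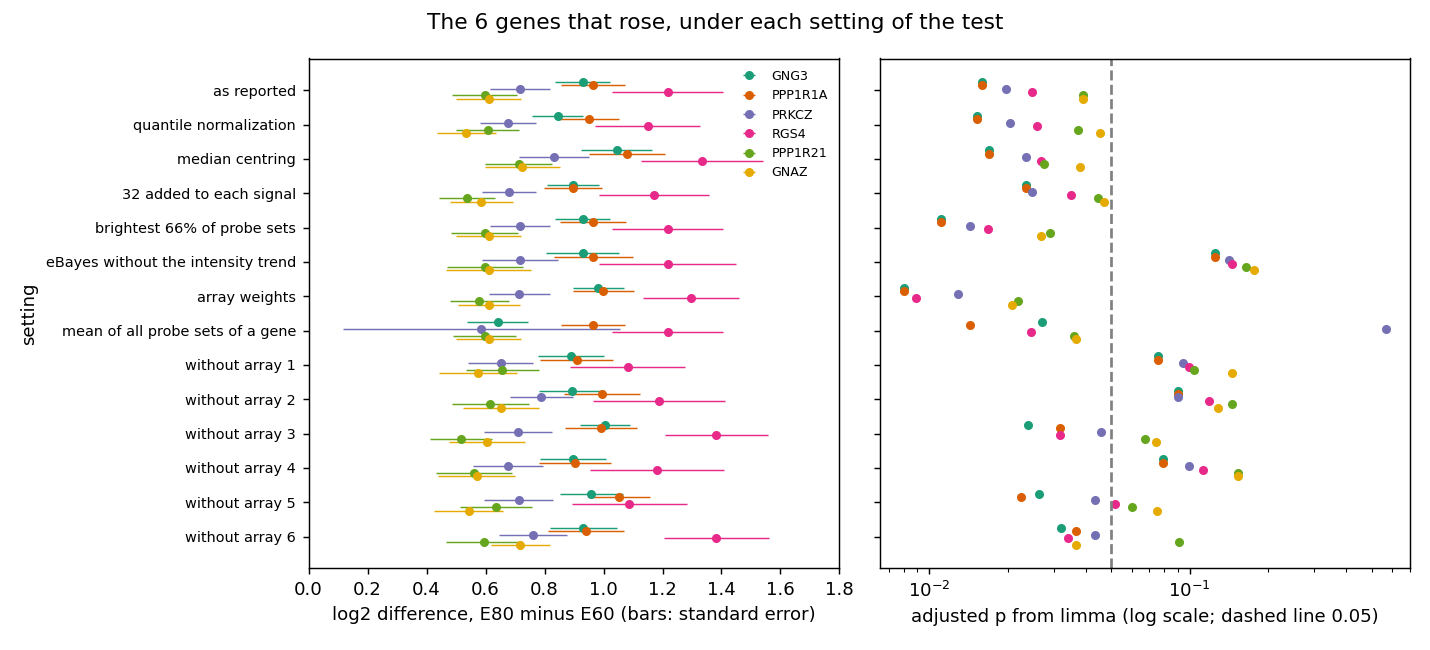
Log2 difference with its standard error (left) and adjusted p from limma on a log axis (right, dashed line at 0.05) for the 6 genes that rose, as reported and under 13 other settings (vertical axis). The differences stay above 0 throughout, between 0.52 and 1.38, while the adjusted p crosses the threshold for all 6 when array 1, 2 or 4 is left out and when the intensity trend is not modelled.

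The size of the 6 changes was steadier than their calls. Over 13 other settings each of the 6 kept its direction, with log2 differences from 0.52 to 1.38 in all. None of the 6 passed when array 1, 2 or 4 was left out, where 1 probe set of the whole array passed in each case. Nor did any of the 6 pass without the intensity trend in limma, where none of the probe sets did. In that fit 30 of the 144 genes and 3706 of the 23999 probe sets had an unadjusted p under 0.05. GNAZ and PPP1R21 did not pass without array 3, where CALM3 rose. RGS4, GNAZ and PPP1R21 did not pass without array 5, where PRKCB rose and PPP4R3A fell. Precision is limited throughout by the 3 arrays of each day.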

How the data were processed

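Cortical RNA of 3 E60 and 3 E80 embryos was hybridised to 1 Affymetrix Pig Genome Array each. The deposited values are MAS5 signals, an intensity per probe set on a linear scale, which the authors scaled to a common mean on each array (the trimmed mean was 149.97 to 149.98 on all 6). Detection calls were not used here. MAS5 summarises each array alone. A signal also depends on the probes, so levels of different probe sets were used only to pick a gene's brightest probe set, to call a probe set dim against the median of all, and to sum marker lists, and no order of genes by level is given.

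After removal of 124 control probe sets, log2 signals of 23999 were fitted with limma 3.58.1 in R 4.3.3 (lmFit, eBayes with an intensity trend, Benjamini-Hochberg, threshold 0.05), without a pseudocount or a filter on low values. The fit was also run on simulated data as a check of the code, which bears on no call given here. Samples were grouped by the embryonic day in the labels. Gene symbols came from GEO's platform annotation: 10069 probe sets had 1 symbol, 198 several and 13732 none. Of the 144 genes, 140 matched RefSeq by Entrez ID. A gene was read from its brightest probe set.

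The genes described were those called, the 3 with the smallest p in each class, the 5 highest and 5 lowest log2 differences without overlap among genes above the median signal of 61.6, PDE6C, genes in which a probe set other than the brightest was called, and the 2 of smallest p in each pathway list. PRKACA, MAPK8IP1, CAMK1D, MAPK14, GNG5 and AKT1 were added after their values were seen. Genes, classes and lists were chosen with earlier results of these data known. Alternatives were array weights, no intensity trend, median centring, quantile normalization, an offset of 32, a filter that kept the brightest 66% of probe sets, the mean of all probe sets of a gene, a fold of at least 3 between mean log2 signals with no overlap, and leaving out each array. Which embryos share a litter is not settled by the labels, so p-values measure only the spread between these 3 samples per day, as moderated by limma. That moderation draws the spread of a probe set towards the spread of probe sets with similar mean signal.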

Additional observations from a re-analysis of the deposited data

How the results depend on the processing

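The number of signalling genes called was 6 as reported, 6 after quantile normalization or with 32 added, and 8 after median centring. It was 10 among the brightest 66% of probe sets, 14 with array weights, 5 for the mean of all probe sets and 3 by the rule of at least 3-fold. It was 0 without the intensity trend (limma, 30 at an unadjusted p under 0.05), and 0 to 5 when 1 array was left out. Calls over the whole array moved too, from 467 as reported to 483 after quantile normalization, 414 with 32 added and 419 after median centring. They numbered 763 among the brightest 66%, 1169 with array weights and 437 where a gene's probe sets were averaged. Without the trend there were 0 (limma, 3706 at an unadjusted p under 0.05), and 1 to 367 when 1 array was left out. Classes with a called gene numbered 5 as reported, 10 with array weights, 3 by the 3-fold rule, 0 without the trend, and 0 to 5 when 1 array was left out. Called pathway genes numbered 2 as reported, 1 after quantile normalization (CAMK2B lost) or for the mean of probe sets (PKIG lost), 0 without the trend or by the 3-fold rule, and 0 to 2 when 1 array was left out. Without array 1, 2 or 4 no signalling gene and no pathway gene was called. The median log2 difference of 0.013 became 0.047 after quantile normalization, 0.13 after median centring, where that of all named genes was 0.11, -0.00028 for the mean of probe sets, and -0.015 to 0.029 when 1 array was left out. The cause was not tested.

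Of 1022 values of described genes under 13 alternatives, 937 kept sign and call, 44 lost and 17 gained the call, and 24 turned sign, none of them in a gene called as reported. After quantile normalization these were ADCYAP1 (0.076), PPP3CC (0.035), PRKACB (-0.010) and PRKAR1A (-0.014). After median centring they were ADCYAP1 (0.079), GNB1L (0.0018), PPP3CC (0.087) and PRKCSH (0.034), and with 32 added ADCYAP1 (0.025). For the mean of probe sets they were CALM3 (-0.21), GNAI1 (-0.0052), PDE4A (-0.015), PRKAR1A (-0.0040), RGS2 (0.15) and AKT1 (0.41). When 1 array was left out, ADCYAP1 ranged from -0.53 to 0.43, PPP3CC from -0.14 to 0.10, PRKCSH from -0.17 to 0.071, AKT1 from -0.30 to 0.066, GNAS from -0.069 to 0.24 and GNB5 from -0.047 to 0.18. PRKCZ lost its call for the mean of probe sets (0.59, adjusted p = 0.57), which takes in a dim one. No paired analysis was possible because the labels give no replicate numbers and do not tie embryos across days. In the 29 genes at or below the median signal, dimness limits what could be called.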
